A study of Mus musculus with 6 samples.

Results

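Glycolysis splits glucose into pyruvate in the cytosol, and glycogen is the branched glucose store that the heart builds and draws on locally. The genes examined here are 30 genes of these pathways in mouse heart, chosen by name from a fixed list of transporters, enzymes and regulators and looked up by symbol among the 54532 gene rows of the deposited count table. Of the 30 genes, 23 belong to glycolysis and lactate handling and 7 to glycogen. All 30 were found, and 30 of 30 passed the filter on low counts that left 14406 genes for testing. The symbol Aldoa stands on 2 rows, of which the one with nearly all reads was used. The other held at most 7 reads in a library.

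RNA was sequenced from the hearts of C57BL/6 mice aged 8 to 10 weeks, collected at day 14 after myocardial infarction. The wild-type group (WT) held 3 libraries, and 3 more came from knockouts of ACKR4 (ACKR4_KO), an atypical receptor that takes up chemokines without G protein signalling. Every heart was infarcted, so no comparison with an uninjured heart is possible here. No source used here gives the region of the heart sampled, the design of the knockout allele or the sex of the mice. The labels do not say whether each library is 1 animal, so p-values measure only the spread between these libraries. In bulk tissue, a larger share of a cell type and more RNA per cell cannot be told apart.

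Many steps of glycolysis are carried out by more than 1 isozyme. In adult heart and skeletal muscle the insulin-responsive transporter GLUT4 (Slc2a4), hexokinase 2, muscle phosphofructokinase (Pfkm), beta-enolase (Eno3), the muscle phosphoglycerate mutase (Pgam2) and muscle glycogen phosphorylase (Pygm) are characteristic, while GLUT1 (Slc2a1), hexokinase 1, Pfkl, Pfkp, Eno1, Pgam1 and Pygb are made in many cell types. The adult heart draws most of its energy from fatty acids, and a greater reliance on glucose is a known feature of the injured heart. The comparison of genotypes asked whether these genes, and the balance of muscle against general isozymes, differ between the genotypes after infarction.

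Libraries held 9422462 to 13910358 counted reads. The targeted gene Ackr4 had 151 to 169 reads in the WT libraries and 1 to 12 reads in the ACKR4_KO libraries, as the labels state. Heart muscle was abundant in every library, with the cardiomyocyte myosin Myh6 at 7741 to 10579 CPM (CPM being the reads of a gene scaled to a common library size) in WT and 11200 to 13677 CPM in ACKR4_KO. The ACKR4_KO libraries were less alike than the WT libraries, with a biological coefficient of variation of 26.7% against 11.7%. ACKR4_KO replicate 2 stood apart, with the 7 fibroblast markers summing to 3288 CPM against 7935 to 10306 CPM in the other 5 libraries. Markers of other tissues differed between libraries. The 9 markers of fast skeletal muscle summed to 123 and 164 CPM in WT replicates 2 and 3 and to between 2.91 and 11.4 CPM in the other libraries, and 7 markers of lung epithelium summed to 38.7 to 236 CPM in WT and 0.323 to 1.83 CPM in ACKR4_KO.

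Most glycolysis and glycogen genes had a higher mean in ACKR4_KO, by a small amount that did not pass the test in any of them. Of the 30 genes, 27 had a log2 fold change above 0, where 52% of all genes tested did. The median was 0.29 on the log2 scale against 0.01 for all genes. The extremes were -0.20 for Pfkfb3 and 0.60 for Pfkfb1. By edgeR's quasi-likelihood test with Benjamini-Hochberg adjustment over all genes, 0 of the 30 passed an adjusted p of 0.05 (0% of all genes did). The smallest adjusted p among the 30 was 0.606. Ackr4 itself, at a log2 fold change of -4.70, had an adjusted p of 0.099 by the same test and did not pass either. An unadjusted p under 0.05 was found for 3 genes, Pfkfb2, Hk2 and Hk1 (7.45% of all genes in either direction). All 3 were higher in ACKR4_KO, and 0 were lower, where 3.81% of all genes were called higher and 3.64% lower. The groups did not overlap in 5 genes, Hk1, Hk2, Pfkm, Pfkfb2 and Phka1, all higher, where this held for 6.53% of all genes. Groups that did not overlap in the lower direction numbered 0 of the 30, against 7.63% of all genes. DESeq2 also called 0 of the 30, with 0.234% of the genes to which it gave an adjusted p called, and put 9 of them under an unadjusted p of 0.05. The count of 3 was 1 without WT replicate 2 or WT replicate 3, 2 without WT replicate 1, 12 without ACKR4_KO replicate 1 and 9 without ACKR4_KO replicate 3. Over all genes, 1073 were under an unadjusted p of 0.05 by edgeR with all libraries. The number was 669 without WT replicate 2, 478 without WT replicate 3 and 620 without WT replicate 1. It was 1906 without ACKR4_KO replicate 1, 985 without ACKR4_KO replicate 2, 1846 without ACKR4_KO replicate 3 and 1008 with DESeq2 on all libraries.

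**Figure D1:**
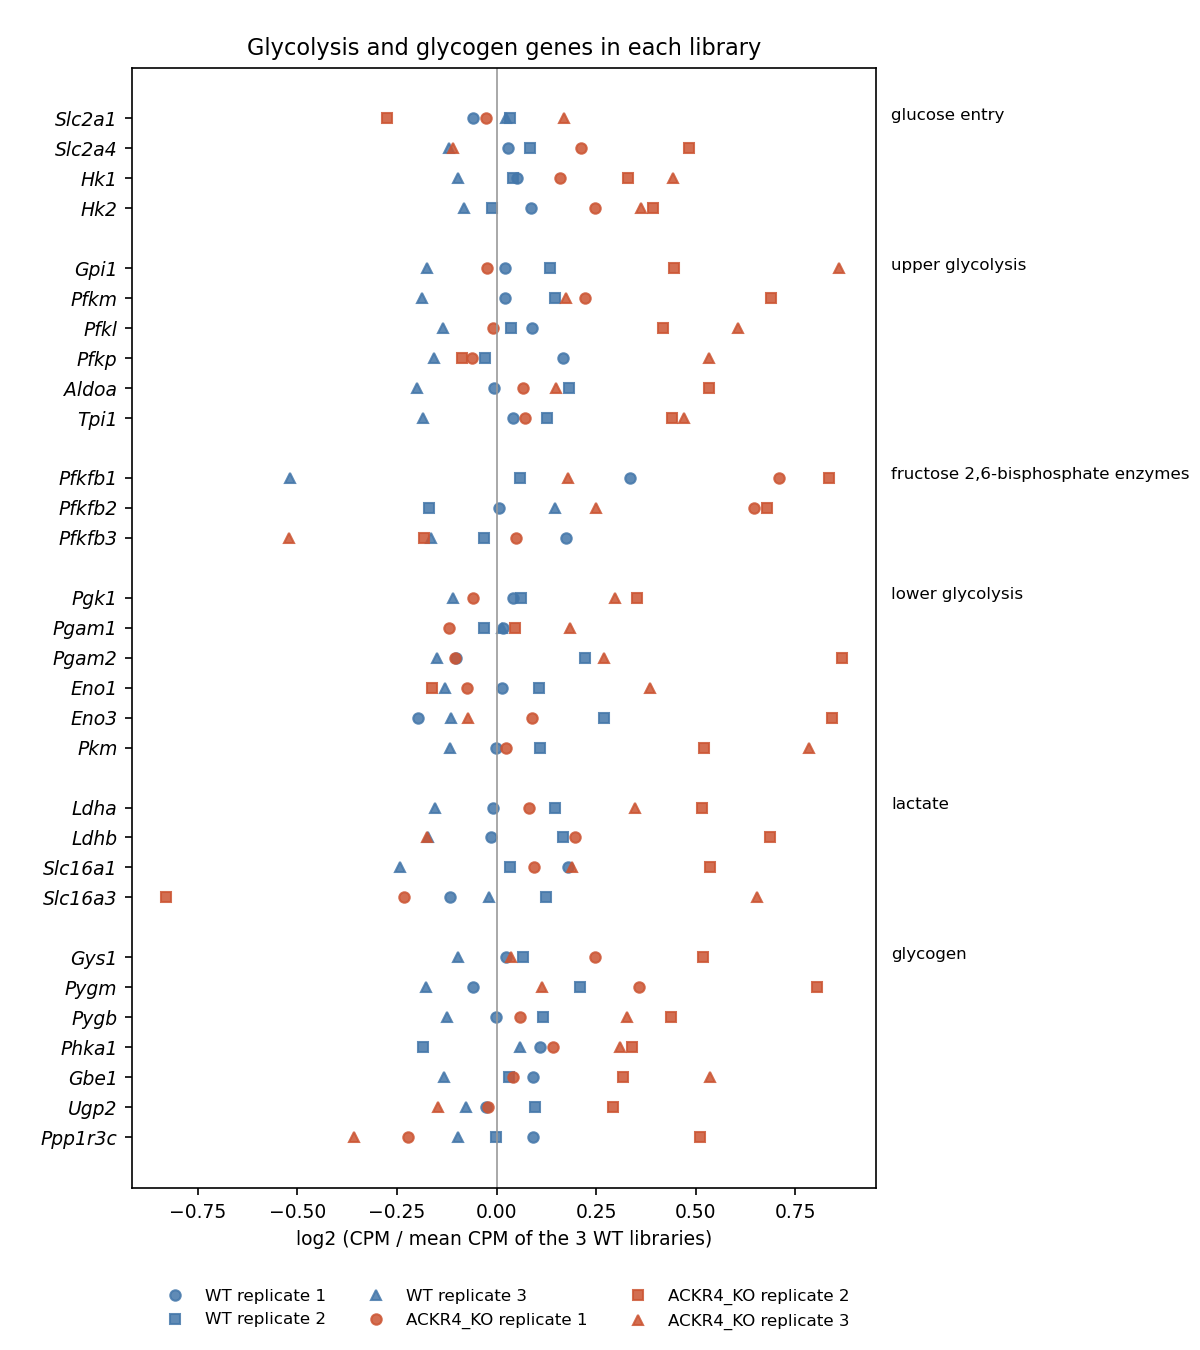
Level of each of the 30 genes in each library (points) as log2 of the CPM divided by the mean CPM of the 3 WT libraries, grouped by role. ACKR4_KO replicate 2 (red squares) exceeded every WT library in 25 of the 30 genes, replicate 3 (red triangles) in 20 and replicate 1 (red circles) in 10.

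The plot of the genes by library shows that the 3 ACKR4_KO libraries did not share 1 shift. Replicate 1 lay within the range of the WT libraries in 17 of the 30 genes. Replicate 2 was the highest of all 6 libraries in 18 genes and replicate 3 in 11. WT replicate 3 was the lowest library in 19 genes. In 27 of the 30 genes the SD of log2 CPM was larger among the ACKR4_KO libraries than among the WT libraries. These counts were not made over all genes, so they cannot be read as particular to the 30. The biological coefficient of variation over all genes tested was also larger in ACKR4_KO, at 26.7% against 11.7%.

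Glucose enters the cell through GLUT transporters and is held there by phosphorylation, the step of the hexokinases. Hk2, the hexokinase of insulin-responsive muscle, was at 183, 170 and 163 CPM in WT and 204, 226 and 221 CPM in ACKR4_KO, in the order of replicates 1, 2 and 3 as in all lists of values here. The lowest ACKR4_KO library stood above the highest WT library, and the spread was small in both groups. The means were 172 ± 10.1 and 217 ± 11.4 CPM (SD, n = 3 each), giving a log2 fold change of 0.34 ± 0.12 (SE). The unadjusted p by edgeR was 0.0216 and the adjusted p was 0.661.

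Hk1, the hexokinase of brain, red cells and most other tissues, was at 174, 173 and 157 CPM in WT and at 188, 211 and 229 CPM in ACKR4_KO. Here too the groups did not overlap, and the log2 fold change was 0.32 ± 0.13 (SE, unadjusted p = 0.0374, adjusted p = 0.661 by edgeR). Both hexokinases were thus higher by a similar factor, 1.26 for Hk2 and 1.24 for Hk1. The transporters behaved otherwise. Slc2a4 was at 288, 298 and 259 CPM in WT and 326, 394 and 261 CPM in ACKR4_KO, so that replicate 3 lay within the WT range. Slc2a1, the basal glucose transporter, was at 22.5, 24 and 23.8 CPM in WT and 23.0, 19.4 and 26.4 CPM in ACKR4_KO, with replicate 2 below and replicate 3 above every WT library. Its log2 fold change was -0.030.

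The 250 bases before the RefSeq start of Hk2 are shown because its ACKR4_KO libraries had the smallest SD relative to their mean among the 5 genes without overlap. The window lies at chr6:82774455-82774704 on the minus strand of GRCm38.p6, and capitals mark the HIF core motif ACGTG on either strand (CACGT is its reverse complement).
Hk2: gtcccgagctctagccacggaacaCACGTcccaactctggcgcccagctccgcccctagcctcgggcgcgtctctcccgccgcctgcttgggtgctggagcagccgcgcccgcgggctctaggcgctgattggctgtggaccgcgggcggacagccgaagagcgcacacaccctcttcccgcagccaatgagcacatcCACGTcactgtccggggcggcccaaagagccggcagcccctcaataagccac
HIF, the hypoxia-inducible factor, is known to act on many promoters of glycolysis genes through sites with such a core. Windows were found for 29 of the 30 genes (46 windows, some genes having several), with none for Slc2a4. The motif ACGTG was in at least 1 window of 16 of the 29 genes, and in 18.5% of all 27025 genes with a window, by the same search. It was in 7 of 13 genes of the general class and in 4 of 9 of the muscle class defined further on. By window it was in 20 of 46, against 16.6% of all windows. A match is a description of the letters and not of binding.

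In upper glycolysis, glucose 6-phosphate is isomerised, phosphorylated a further time and split. All 6 genes of this group had a higher mean in ACKR4_KO, with log2 fold changes between 0.16 and 0.47, and 0 of 6 passed. Pfkm, the muscle subunit of phosphofructokinase, the committed step of the pathway, was at 633, 689 and 547 CPM in WT and 726, 1005 and 703 CPM in ACKR4_KO. The groups did not overlap, although replicate 3 exceeded WT replicate 2 by little, and the log2 fold change was 0.38 ± 0.19 (SE, adjusted p = 0.683 by edgeR).

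The other phosphofructokinase subunits had another order of libraries. Pfkl, the liver-type subunit, was at 125, 120 and 107 CPM in WT and 117, 157 and 179 CPM in ACKR4_KO. Pfkp, the platelet-type subunit, was at 94.1, 82.1 and 75.1 CPM in WT and 80.3, 78.9 and 121 CPM in ACKR4_KO. Replicate 3 was the highest library for both, and for Pfkp it was the lone ACKR4_KO library above WT. Gpi1, the glucose 6-phosphate isomerase, followed the same order, with 386, 418 and 337 CPM in WT and 374, 518 and 690 CPM in ACKR4_KO, giving a log2 fold change of 0.47 ± 0.22 (SE). Aldoa, the aldolase of muscle and most tissues, was at 1506 to 1961 CPM in WT and 1811 to 2504 CPM in ACKR4_KO, with replicate 2 highest. Tpi1, the triose phosphate isomerase, was at 499 to 619 CPM in WT and 596 to 786 CPM in ACKR4_KO, with replicates 2 and 3 close together.

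The PFKFB enzymes make and break down fructose 2,6-bisphosphate, the activator of phosphofructokinase, and they hold both the largest difference among the 30 genes and one of the few in the other direction. Pfkfb2, the form known from heart, was at 25.0, 22.1 and 27.5 CPM in WT and 38.9, 39.9 and 29.6 CPM in ACKR4_KO. Replicates 1 and 2 were well above WT and replicate 3 just above it. The means were 24.9 ± 2.72 and 36.1 ± 5.68 CPM (SD, n = 3 each), 1.45-fold higher, giving a log2 fold change of 0.53 ± 0.15 (SE). By edgeR the unadjusted p was 0.00705, the smallest of the 30 genes and rank 160 among all genes, and the adjusted p was 0.606. On the same strand the readthrough gene Gm29427 overlaps 1262 exonic bases of Pfkfb2 (17.4% of its exonic length), and its row held 2.0 reads per library on average. That low count does not show how reads in the shared bases were counted, and the exonic length of Pfkfb2 includes these bases.

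Pfkfb3, the inducible form of many tissues, was at 31.0, 26.9 and 24.4 CPM in WT and 28.3, 24.2 and 19.1 CPM in ACKR4_KO, giving a log2 fold change of -0.20 ± 0.17 (SE). The groups overlapped. Pfkfb1, the form of liver and skeletal muscle, was the weakest of the 30 genes at 1.72 to 3.11 CPM in WT and 2.79 to 4.41 CPM in ACKR4_KO, and its log2 fold change of 0.60 had a standard error of 0.33. Pfkfb1 shares 123 exonic bases with Apex2 on the opposite strand, whose row held 58.3 reads per library on average against 35.8 for Pfkfb1, and with the strand setting unknown the reads of such pairs cannot be told apart. The same holds for Pfkp and Pitrm1 over 748 bases and for Gys1 and Ruvbl2 over 310 bases.

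Pfkfb2 has 3 RefSeq start windows. The 1 shown holds both the HIF core ACGTG and the muscle E-box CAGCTG in capitals, and was picked for that. It lies at chr1:130714577-130714826 on the minus strand of GRCm38.p6.
Pfkfb2: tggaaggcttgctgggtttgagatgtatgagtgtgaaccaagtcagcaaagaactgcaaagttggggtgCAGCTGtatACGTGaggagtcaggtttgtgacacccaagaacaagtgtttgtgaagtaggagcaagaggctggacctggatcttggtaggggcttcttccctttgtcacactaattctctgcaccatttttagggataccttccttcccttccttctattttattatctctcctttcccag
The muscle E-box CAGCTG, a palindrome bound by myogenic factors in skeletal muscle, was in a window of 10 of the 29 genes, against 14.7% of all genes. It was in 6 of 9 muscle-class genes and in 2 of 13 general-class genes. By window it was in 10 of 46, against 13% of all windows. A gene with several windows has more chances of a match. In the muscle class Pfkfb1 and Pfkm have 4 windows each and Pfkfb2 has 3, while Gys1, Pgam2, Phka1 and Pygm, each with a match, have 1.

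Lower glycolysis yields ATP and ends in pyruvate. All 6 genes of this group had a higher mean in ACKR4_KO, with log2 fold changes between 0.041 and 0.48, and the groups overlapped in 6 of 6. Pkm, the pyruvate kinase of muscle and most other tissues, was at 835, 902 and 771 CPM in WT and 850, 1199 and 1440 CPM in ACKR4_KO, giving a log2 fold change of 0.48 ± 0.21 (SE, adjusted p = 0.672 by edgeR). Replicate 1 was within the WT range and replicate 3 highest. Pgk1, the phosphoglycerate kinase, was at 291 to 328 CPM in WT and 301 to 401 CPM in ACKR4_KO.

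The mutases and enolases each come as a muscle and a general form, and the forms of a pair differed in which library was high. Pgam2 was at 394, 493 and 381 CPM in WT and 393, 771 and 509 CPM in ACKR4_KO, with replicate 2 far above the rest. Pgam1 was at 71.0, 68.6 and 70.7 CPM in WT and 64.5, 72.3 and 79.6 CPM in ACKR4_KO, a narrow range with a log2 fold change of 0.041. Eno3 was at 844, 1167 and 894 CPM in WT and 1029, 1736 and 922 CPM in ACKR4_KO. Eno1 was at 197, 210 and 178 CPM in WT and 185, 174 and 254 CPM in ACKR4_KO. Replicate 2 was thus the highest library for Eno3 and the lowest for Eno1, and replicate 3 the highest for Eno1. The log2 fold changes were 0.40 for Pgam2, 0.34 for Eno3 and 0.070 for Eno1, with standard errors of 0.25, 0.26 and 0.17.

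The windows of the mutase pair are shown to set a muscle promoter beside a general one. That of Pgam2 lies at chr11:5803797-5804046 on the minus strand and that of Pgam1 at chr19:41911621-41911870 on the plus strand of GRCm38.p6. Capitals mark CAGCTG and the MEF2 consensus in Pgam2 and ACGTG in Pgam1.
Pgam2: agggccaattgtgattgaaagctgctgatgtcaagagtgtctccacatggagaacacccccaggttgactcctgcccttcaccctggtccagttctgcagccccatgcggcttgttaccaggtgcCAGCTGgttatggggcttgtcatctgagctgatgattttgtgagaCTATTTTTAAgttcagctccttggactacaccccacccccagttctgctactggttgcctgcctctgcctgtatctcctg
Pgam1: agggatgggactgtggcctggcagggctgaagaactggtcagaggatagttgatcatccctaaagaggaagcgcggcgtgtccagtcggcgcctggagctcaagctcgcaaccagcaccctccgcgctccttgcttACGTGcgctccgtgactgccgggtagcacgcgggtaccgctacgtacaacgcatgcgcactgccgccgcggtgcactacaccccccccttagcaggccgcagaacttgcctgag
MEF2 is a factor of muscle and heart genes. Its consensus was in 2 of the 29 genes, Pgam2 and Pfkfb1, and in 3.42% of all genes. By window it was in 2 of 46, against 2.92% of all windows. The mutase pair does not stand for all genes of its classes. The windows of the enolases Eno3 and Eno1 held none of the motifs marked here. Those of Pfkm, a muscle form, held the HIF core but neither the muscle E-box nor the MEF2 consensus. Pkm, counted as a general form, held the muscle E-box, which was in 6 of 9 muscle-class and 2 of 13 general-class genes.

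Lactate dehydrogenase is a tetramer of the heart subunit (Ldhb) and the muscle subunit (Ldha), and MCT1 (Slc16a1) and MCT4 (Slc16a3) carry lactate across the membrane, MCT4 mainly outward from highly glycolytic cells. Ldhb was at 908, 1029 and 814 CPM in WT and 1052, 1475 and 812 CPM in ACKR4_KO. Ldha was at 612, 682 and 553 CPM in WT and 651, 881 and 784 CPM in ACKR4_KO. Replicate 3 was therefore low for the heart subunit and high for the muscle subunit. Slc16a1 was at 126 to 169 CPM in WT and 160 to 217 CPM in ACKR4_KO. Slc16a3 was at 14.8, 17.5 and 15.8 CPM in WT and 13.6, 9.02 and 25.2 CPM in ACKR4_KO, so that replicates 2 and 3 lay on opposite sides of the WT libraries while the means were both 16.0 CPM. No gene of this group passed, and the groups overlapped in 4 of 4.

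Glycogen is built from UDP-glucose (Ugp2) by glycogen synthase (Gys1) and the branching enzyme (Gbe1), and is broken down by phosphorylases (Pygm, Pygb) that phosphorylase kinase (subunit Phka1) activates. The glycogen genes were higher in 7 of 7 by their means, with a median log2 fold change of 0.28, beside 20 of 23 and 0.32 for the glycolysis genes. Without ACKR4_KO replicate 2 both medians were 0.20. No glycogen gene passed, and the groups did not overlap in Phka1 alone, with higher values, beside 6.53% of all genes in that direction. Phka1 was at 32.7, 26.6 and 31.5 CPM in WT and 33.4, 38.3 and 37.5 CPM in ACKR4_KO, giving a log2 fold change of 0.26 ± 0.13 (SE, adjusted p = 0.682 by edgeR).

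Pygm was at 613, 739 and 565 CPM in WT and 819, 1116 and 692 CPM in ACKR4_KO, with replicate 3 inside the WT range, and its log2 fold change of 0.45 was the largest of the glycogen genes (standard error 0.21). Pygb, the brain-type phosphorylase, was at 575, 625 and 529 CPM in WT and 600, 781 and 723 CPM in ACKR4_KO. Both phosphorylases were highest in replicate 2, and they parted in replicate 3, where Pygb alone was above WT. Gys1 was at 68.7 to 76.9 CPM in WT and 75.2 to 105 CPM in ACKR4_KO, and Gbe1 at 35.6 to 41.5 and 40.1 to 56.6 CPM. The last pair differed least. Ugp2 was at 216 to 244 CPM in WT and 206 to 279 CPM in ACKR4_KO, and Ppp1r3c, which brings protein phosphatase to glycogen, was at 135, 127 and 119 CPM in WT and 109, 181 and 98.9 CPM in ACKR4_KO. For Ppp1r3c replicate 2 was above every WT library and replicates 1 and 3 were below every one.

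Levels can be set between genes only per length. On the scale of CPM per kilobase of exon, 4 genes led in WT, Aldoa at 594 ± 78.1, Ldhb at 584 ± 68.8, Eno3 at 557 ± 99.99 and Pgam2 at 503 ± 73.4 (SD, n = 3 each). Neighbours in this order differed by less than their SDs. Tpi1 came next at 206 ± 22.4 and Pygm at 199 ± 27.9, again within their spread, and Pfkfb1 was last at 0.615 ± 0.174. The same 4 genes led in ACKR4_KO, between 664 ± 231 for Pgam2 and 714 ± 128 for Aldoa. The lengths are unions of all annotated exons, which makes genes with long rarely used exons look lower.

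**Figure D2:**
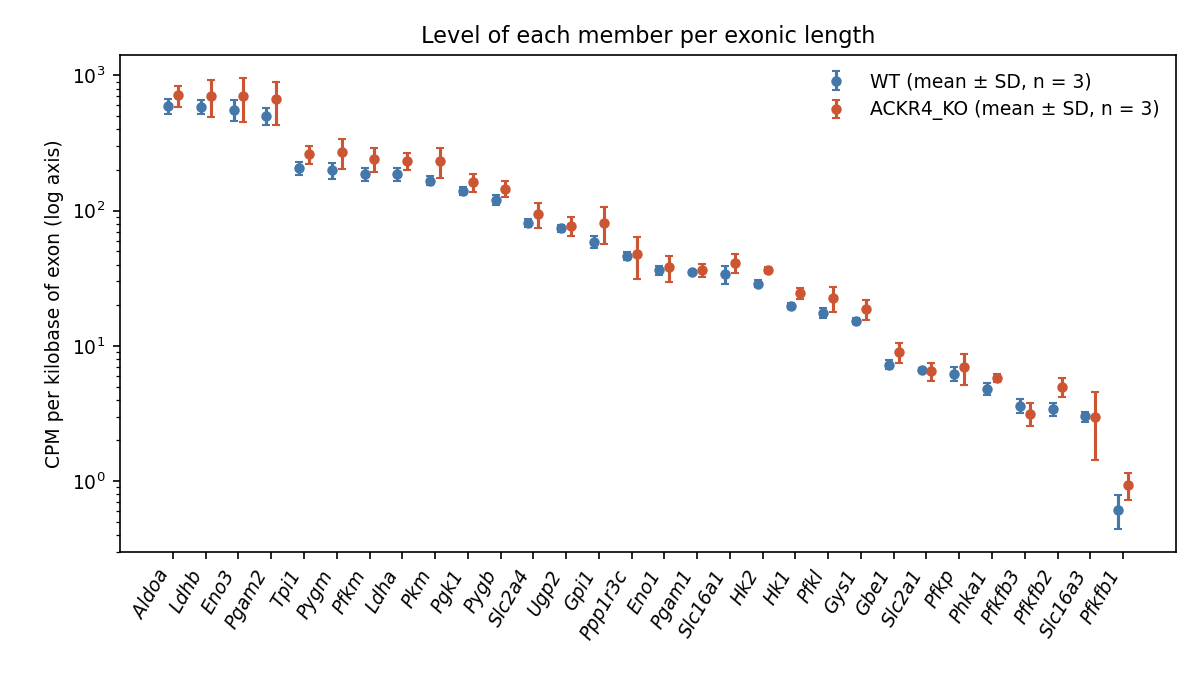
Mean level of each gene in CPM per kilobase of exon (log axis) in WT and ACKR4_KO, with SD over 3 libraries as bars, in the order of the WT level. Levels run from 0.615 for Pfkfb1 to 594 for Aldoa in WT, and the ACKR4_KO mean is the higher one in 27 of 30 genes.

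Per kilobase in WT, the first-named gene was the more abundant one in 9 of the 10 pairs compared. In 8 pairs a muscle form is set against a general form, and in Ldhb to Ldha and Slc16a1 to Slc16a3 neither gene belongs to these classes. Pfkm stood 29.8 times above Pfkp and 10.6 times above Pfkl, Eno3 15.4 times above Eno1, Pgam2 14.2 times above Pgam1, Slc2a4 12.1 times above Slc2a1 and Slc16a1 11.2 times above Slc16a3. Ldhb was 3.14 times above Ldha, Pygm 1.66 times above Pygb and Hk2 1.46 times above Hk1. Pfkfb2 was at 0.946 of Pfkfb3 in WT and at 1.58 times Pfkfb3 in ACKR4_KO. These ratios depend on the exonic lengths, which are 13401 bases for Pfkp and 3340 for Pfkm, and 5379 for Eno1 and 1739 for Eno3. The coding lengths are 2352, 2340, 1302 and 1302 bases in the same order. Without division by length, the WT means were 623 CPM for Pfkm and 83.7 for Pfkp, and 968 for Eno3 and 195 for Eno1.

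Ratios within a library do not depend on the scaling between libraries. The log2 ratio of reads of Pfkfb2 to Pfkfb3 was -0.31, -0.28 and 0.17 in WT and 0.46, 0.72 and 0.63 in ACKR4_KO. All 3 ACKR4_KO libraries lay above all WT libraries, and the means were -0.14 ± 0.27 and 0.60 ± 0.13 (SD). The difference of 0.74 gave p = 0.1 by the two-sided exact permutation test, the smallest value that 3 libraries against 3 allow, and p = 0.857 after adjustment over the 10 pairs.

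The other 9 ratios overlapped between the genotypes. Their differences, ACKR4_KO minus WT, ran from -0.08 for Ldhb to Ldha to 0.42 for Slc16a1 to Slc16a3, with exact permutation p from 0.4 to 1. The ACKR4_KO libraries were spread widely. Replicate 2 had the highest ratio of the first-named to the second-named gene in 9 of the 10 pairs, and replicate 3 the lowest in 8 of 10. The ratio of Eno3 to Eno1 was 2.10, 2.48 and 2.33 in WT and 2.48, 3.32 and 1.86 in ACKR4_KO on the log2 scale. That of Ldhb to Ldha was 0.57, 0.59 and 0.56 in WT, a range far narrower than the 0.69, 0.74 and 0.05 of ACKR4_KO. Pfkm enters 2 of the pairs, so these are not independent.

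**Figure D3:**
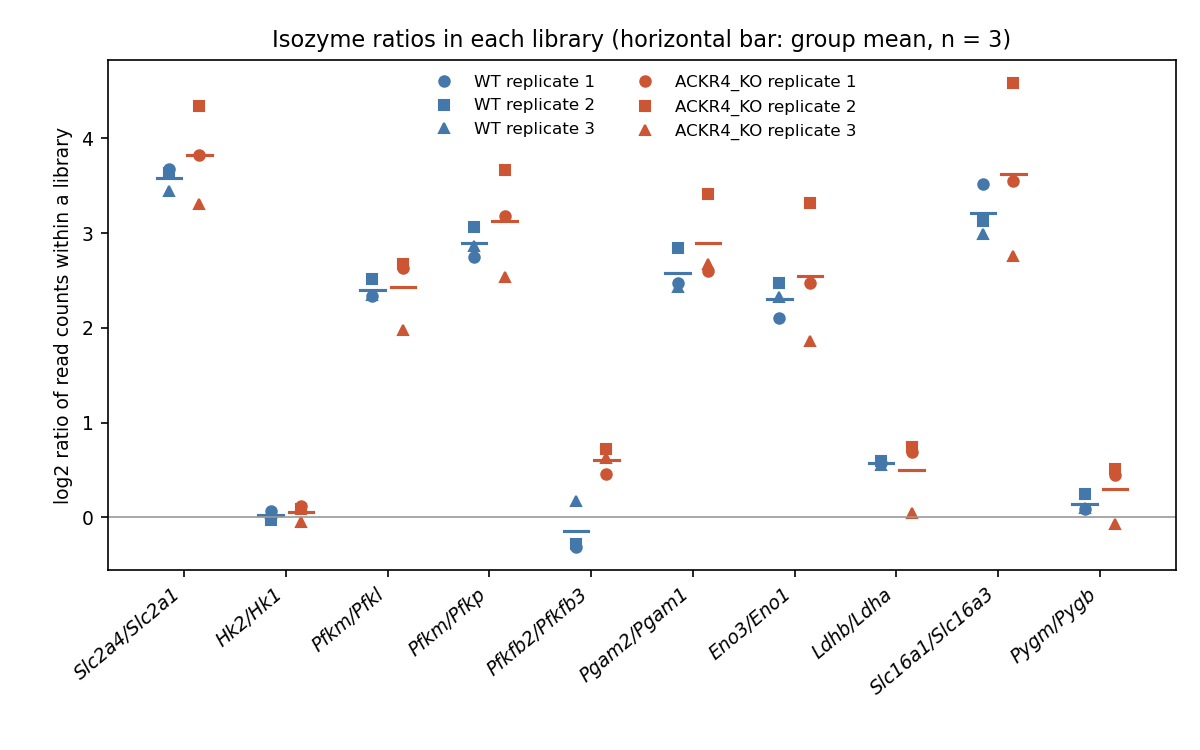
Log2 ratio of the reads of the first-named to those of the second-named gene within each library, for 10 pairs, with group means as horizontal bars. ACKR4_KO replicate 2 (red squares) is the highest library in 9 pairs and replicate 3 (red triangles) the lowest in 8, and the groups separate for Pfkfb2/Pfkfb3 alone.

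By class, the 10 genes counted as muscle forms (Slc2a4, Hk2, Pfkm, Pfkfb1, Pfkfb2, Pgam2, Eno3, Pygm, Phka1 and Gys1) had a higher mean in ACKR4_KO in 10 of 10, with a median log2 fold change of 0.36. The 13 general forms were higher in 11 of 13 with a median of 0.26, the exceptions being Slc2a1 and Pfkfb3. These shares stand beside 52% of all genes, and the difference of the classes was not tested. Without ACKR4_KO replicate 2 the medians were 0.22 and 0.20, without ACKR4_KO replicate 3 they were 0.47 and 0.22, and without WT replicate 3 they were 0.30 and 0.175. ACKR4_KO replicate 2 was the highest library in 10 of 10 muscle forms and in 3 of 13 general forms. Replicate 3 was the highest in 9 of 13 general forms and in 0 of 10 muscle forms.

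**Figure D4:**
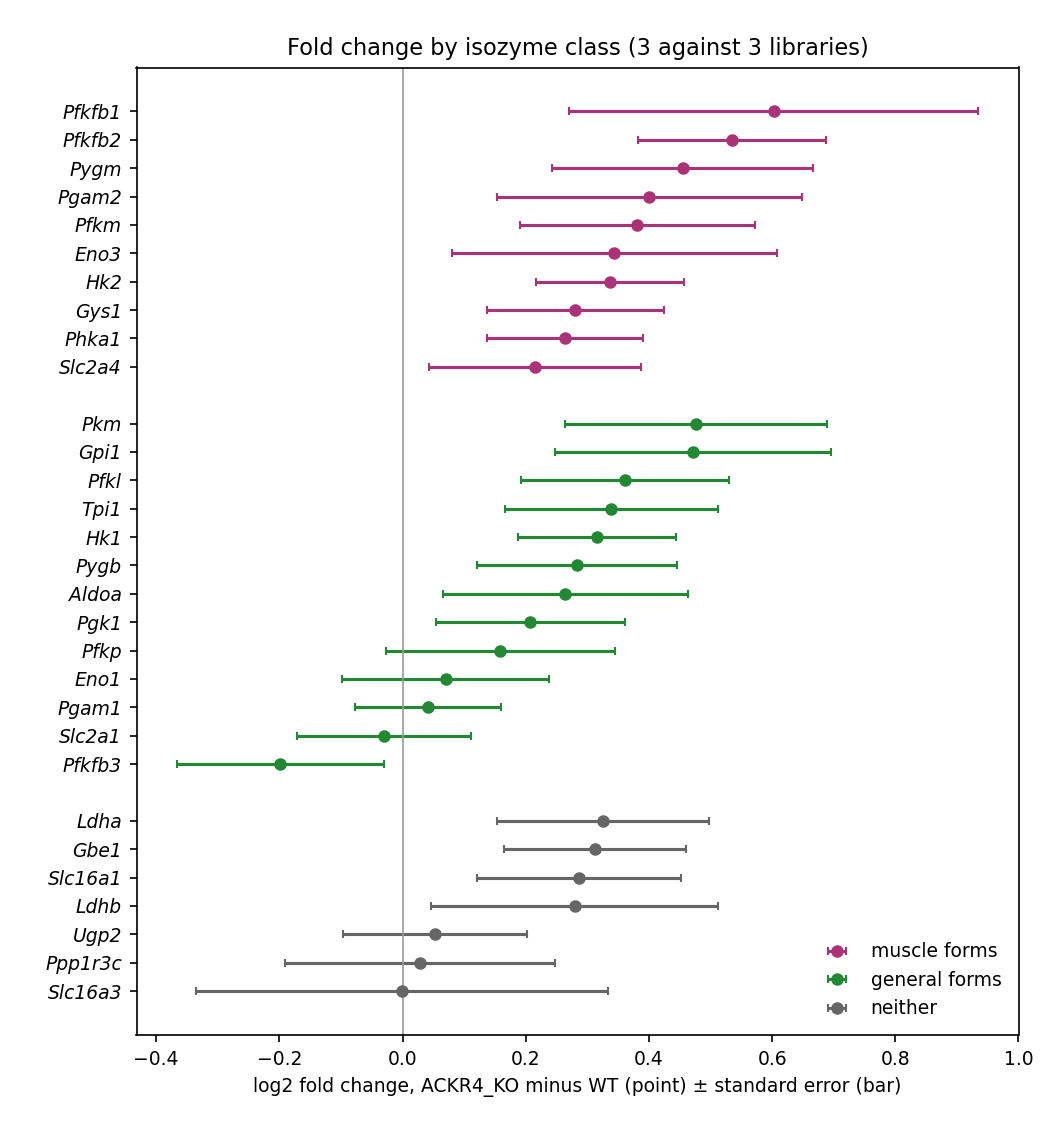
Log2 fold change of each gene, ACKR4_KO minus WT, with its standard error from edgeR's quasi-likelihood fit, by isozyme class. All 10 muscle forms and 11 of 13 general forms lie above 0, and the adjusted p of every gene was 0.606 or more.

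Cell type markers are given beside these values, and their part in the results was not tested. The 10 cardiomyocyte markers summed to 38731 to 48380 CPM in WT and to 49412 to 68877 CPM in ACKR4_KO without overlap, highest in replicate 2. They were higher by their means in 10 of 10, the median log2 fold change was 0.40, and none was at 0. A list score, the mean deviation of the genes' log2 CPM from the average over all 6 libraries, was 0.46 for cardiomyocyte markers and 0.47 for muscle forms in replicate 2, and 0.05 and -0.02 in replicate 3. The general forms scored 0.12 and 0.27 in the same libraries. The fibroblast markers scored -1.06 in replicate 2 and 0.20 in replicate 3, the fibroblast list being lower by its means in 6 of 7 genes. The endothelial markers were lower by their means in 5 of 5, with a median of -0.28, and summed to 1401 to 1588 CPM in WT and 1050 to 1401 CPM in ACKR4_KO, the nearest libraries of the groups differing by less than 1 CPM. Macrophage markers were lower by their means in 5 of 6 and smooth muscle markers in 3 of 4, with sums that overlapped between the groups. The groups did not overlap in 3 cardiomyocyte markers (Myh6, Myl2 and Ryr2) and 1 macrophage marker, all higher, beside 6.53% of all genes. With lower values they did not overlap in 2 smooth muscle markers, 1 endothelial marker and 1 fibroblast marker (Lum), beside 7.63% of all genes. Scaled to the reads of the 10 cardiomyocyte markers instead of the whole library, an alternative chosen after seeing the data, 6 of the 30 genes were higher in ACKR4_KO, and the medians were -0.07 for glycolysis and -0.10 for glycogen. The 6 were Pfkfb1, Pfkfb2, Pkm, Pygm, Gpi1 and, by less than 0.001, Pfkm.

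**Figure D5:**
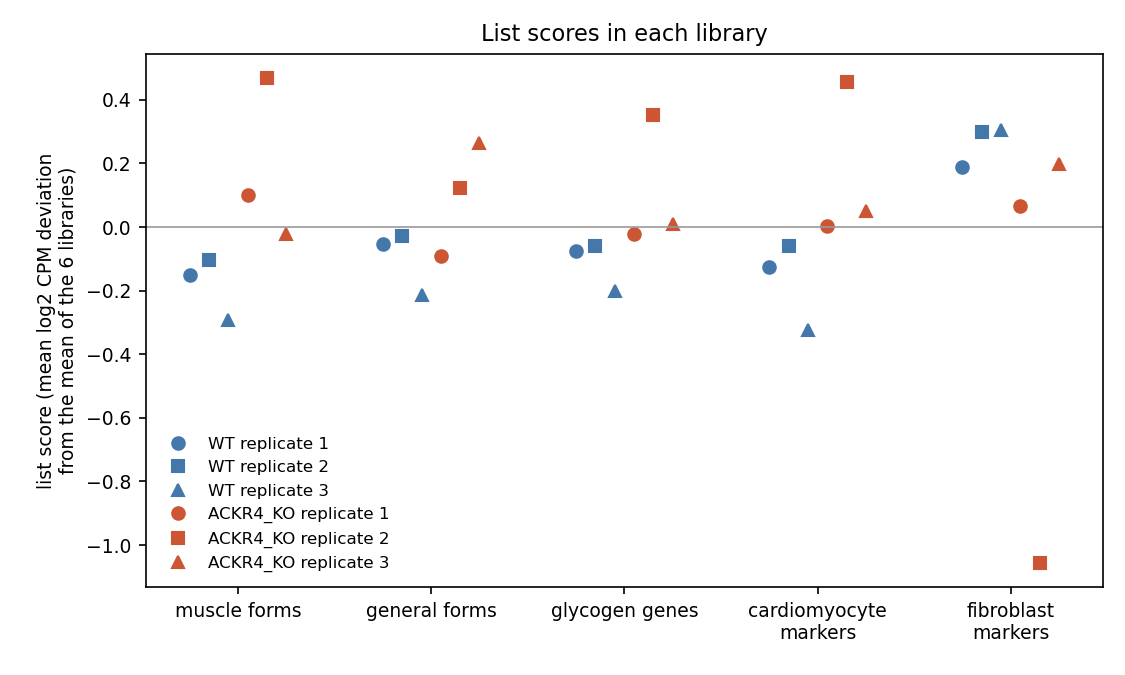
List score of each library for muscle forms, general forms, glycogen genes, cardiomyocyte markers and fibroblast markers, in log2 units relative to the mean of the 6 libraries. ACKR4_KO replicate 2 is at 0.47 for muscle forms, 0.46 for cardiomyocyte markers and -1.06 for fibroblast markers, and replicate 3 is highest for general forms at 0.27.

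Markers of other tissues are set beside single genes here. Fast skeletal muscle is rich in Eno3, Pgam2 and Pygm, and its markers were highest in WT replicates 2 and 3 (the myosin Myh1 at 19.3 and 28.9 CPM, and at 0 in WT replicate 1). Replicate 2 was the highest WT library for these 3 genes, while replicate 3 was the lowest for Pgam2 and Pygm. The 5 erythroid markers summed to 263 to 319 CPM in WT and 137 to 639 CPM in ACKR4_KO, highest in replicate 2. Their part too was not tested.

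Of the 71 other genes of the pathways and their control, 65 were tested and 0 passed over all genes. Beyond the 30 genes, enzymes and transporters of glycolysis were higher in 9 of 16 tested, with a median of 0.02 on the log2 scale. An unadjusted p under 0.05 in either direction was found for 0 of 16, beside 7.45% of all genes. The groups did not overlap in 1 of the 16, Adpgk, an ADP-dependent glucokinase, with lower values in ACKR4_KO, beside 7.63% of all genes in that direction. Bsg, the chaperone of the lactate transporters, was the most abundant at 1016 to 1263 CPM in WT and 951 to 1641 CPM in ACKR4_KO. Gapdh is not among the 30 genes. It ranged from 20.0 to 130 CPM in WT and from 4.30 to 236 CPM in ACKR4_KO, and 171 pseudogene copies with at least 90% identity over 200 bases held 79.9% as many reads as its own row. Among the 30 genes the copies held at most 2.05% of the gene's reads, for Tpi1, and 13 copies of Ldha held 0.208%. Such shares cover reads assigned to the copies and cannot show reads left uncounted because they matched several places.

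Entry of pyruvate into mitochondria runs through the pyruvate carrier and the pyruvate dehydrogenase complex, which PDK kinases switch off. Of its 13 genes 11 were higher by their means, with a median of 0.21. Dlat, the E2 subunit, was at 293, 304 and 244 CPM in WT and 320, 409 and 356 CPM in ACKR4_KO (log2 fold change 0.37, unadjusted p = 0.0427, adjusted p = 0.664 by edgeR). The groups did not overlap for Dlat, nor in the lower direction for Pdk3, one of the PDK kinases, at 5.91, 5.76 and 5.99 CPM in WT and 4.52, 3.89 and 4.89 CPM in ACKR4_KO (log2 fold change -0.41, adjusted p = 0.691 by edgeR). Among all genes 6.53% did not overlap with higher values and 7.63% with lower values. The most abundant over the 6 libraries were Pdha1 and Pdhb, with log2 fold changes of 0.19 and 0.36.

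Other glycogen genes were higher by their means in 16 of 19 tested, with a median of 0.17. An unadjusted p under 0.05 was found for 3, all higher, beside 7.45% of all genes in either direction and 3.81% higher. In all 3 the groups did not overlap. Phka2, the liver-type alpha subunit of phosphorylase kinase, was at 11.8, 12.8 and 13.02 CPM in WT and 17.0, 15.4 and 17.2 CPM in ACKR4_KO (log2 fold change 0.40). Phkb, the beta subunit of the same kinase, was at 42.4 to 44.2 CPM in WT and 49.3 to 53.7 CPM in ACKR4_KO (0.25). Ppp1r3a, the muscle glycogen-targeting subunit of protein phosphatase, was at 62.7 to 69.5 CPM in WT and 78.3 to 98.3 CPM in ACKR4_KO (0.35). The adjusted p was 0.661 to 0.665 for these genes. In all, the groups did not overlap in 6 of the 19, all higher, beside 6.53% of all genes.

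Among 17 regulators 12 were higher by their means, with a median of 0.11, and 5 had an unadjusted p under 0.05, beside 52% higher and 7.45% under that p among all genes. Klf15, a transcription factor known to raise Slc2a4 transcription, was at 35.9, 43.5 and 35.2 CPM in WT and 71.2, 78.7 and 43.1 CPM in ACKR4_KO, with replicate 3 inside the WT range (log2 fold change 0.75, unadjusted p = 0.00793, adjusted p = 0.606 by edgeR). Mlxipl and Mlxip, the glucose-sensing factors ChREBP and MondoA, had log2 fold changes of 0.58 and 0.36, and the insulin receptor Insr 0.32. The groups did not overlap in these 3 (6.53% of all genes in that direction) and, with lower values in ACKR4_KO, in Hif1a and Prkaa1 (7.63% of all genes). Prkaa1, a catalytic subunit of the energy sensor AMPK, was at 29.6, 26.3 and 28.6 CPM in WT and 24.6, 21.2 and 24.6 CPM in ACKR4_KO (log2 fold change -0.26, adjusted p = 0.672 by edgeR). Txnip, a target of these factors that restrains glucose uptake, was at 575 to 900 CPM in WT and 447 to 814 CPM in ACKR4_KO. Hif1a, the oxygen-regulated subunit of HIF, was the lone one of the 5 with a lower mean, at 111, 96.1 and 109 CPM in WT and 95.1, 78.7 and 85.2 CPM in ACKR4_KO (log2 fold change -0.29, unadjusted p = 0.0477, adjusted p = 0.666 by edgeR).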

How the data were processed

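RNA-seq of 6 heart libraries was analysed from the raw counts deposited by the authors, whole numbers of reads per Ensembl gene. Reads were handled with CASAVA 1.8.2, HISAT2, HTSeq 0.6.0 and build mm10, names taken from the submitters' processing notes. No source used here gives the annotation release or strand setting, so reads of overlapping genes on opposite strands cannot be assigned. Groups and replicate numbers came from the sample descriptions. Symbols, exon lengths and pseudogenes came from GENCODE M21 (GRCm38, the assembly of mm10), and promoter windows from RefSeq on GRCm38.p6.

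Genes were kept with filterByExpr of edgeR 4.0.16 (minimum count 10, total 15) and scaled by TMM. Genotypes were compared with edgeR's quasi-likelihood test, robust and two-sided, in R 4.3.3, adjusted by Benjamini-Hochberg over all 14406 genes at a threshold of 0.05. CPM values use TMM-scaled library sizes. Standard errors were derived from the log2 fold change and the F statistic. Isozyme ratios used a prior count of 0.5 and an exact permutation test. Pseudogene copies were found with BLAST 2.17.0 from the longest open reading frame of each gene. Alternatives used RLE factors, DESeq2 1.42.0, limma-voom 3.58.1, other filters, no robust estimation, removal of mitochondrial and hemoglobin genes, a replicate block and each library left out. The edgeR, DESeq2 and limma-voom tests were run on simulated counts with the same dispersion in both genotypes. The biological coefficient of variation here was 11.7% in WT and 26.7% in ACKR4_KO, so that run cannot show how the tests behave with unequal spread. The permutation test was not simulated. The genes, lists, pairs and classes were chosen with earlier results of these data known. By rule, all 30 genes are accounted for, those with an unadjusted p under 0.05, no overlap or a place in a pair are given by library, and other pathway genes are named at an unadjusted p under 0.05 or as the most abundant, while further names were chosen after their values were seen.

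Counts of 9422462 to 13910358 reads per library set the precision. A count of 3 reads, the floor for a count of 0, is at most 0.309 CPM, and such limits cover counting error only.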

Additional observations from a re-analysis of the deposited data

How the results depend on the processing

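No alternative passed any of the 30 genes at an adjusted p of 0.05. The median of all genes moved by less than 0.1 on the log2 scale under every scaling. Genes past the threshold over all genes numbered 0 by the main test and 24 with no filter on low counts, 41 with DESeq2, 6 with the replicate block and 0 to 1 with a library left out (1 without ACKR4_KO replicate 3). Of the 30 genes, 3 had an unadjusted p under 0.05, against 8 with no filter, 9 with DESeq2 and 1 to 12 with a library left out. Over all genes the numbers were 1073, 1521 with no filter, 1008 with DESeq2 and 478 to 1906 with a library left out. Genes higher in ACKR4_KO numbered 24 to 28 under 14 alternatives and 6 with cardiomyocyte marker reads as denominator, under which the medians were -0.067 (glycolysis) and -0.099 (glycogen). With a library left out the medians were 0.20 to 0.38 and 0.20 to 0.32.

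In 23 of the 30 genes the direction was the same under 14 alternatives. For the other 7 the log2 fold change with a library left out ran from -0.1116 to 0.1767 for Eno1, -0.0684 to 0.2697 for Pfkp, -0.031 to 0.116 for Pgam1, -0.2856 to 0.1937 for Ppp1r3c, -0.4851 to 0.2801 for Slc16a3, -0.1369 to 0.0788 for Slc2a1 and -0.079 to 0.1487 for Ugp2. Slc16a3 was at 0.0051 with RLE factors and 2e-04 with the filter of 1 CPM in 3 libraries, and Ppp1r3c at -0.0163 with limma-voom and -0.023 with the replicate block. Ratio differences with a library left out ran from -0.0979 to 0.2539 for Pfkm to Pfkl, -0.0082 to 0.0759 for Hk2 to Hk1, -0.0195 to 0.4989 for Slc2a4 to Slc2a1, -0.0383 to 0.5289 for Pfkm to Pfkp, -0.1347 to 0.5944 for Eno3 to Eno1, -0.0611 to 0.8523 for Slc16a1 to Slc16a3 and -0.2017 to 0.1452 for Ldhb to Ldha. That of Pfkfb2 to Pfkfb3 ran from 0.6556 to 0.8964. Those of Pgam2 to Pgam1, at 0.0596 to 0.4637, and of Pygm to Pygb, at 0.0489 to 0.3389, also kept their direction. The causes were not tested.

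Same-numbered libraries had correlations of their deviations of 0.07, 0.05 and 0.13, not all over 0.1, so the numbers were not taken to pair them. With the replicate block, 0 of the 30 genes passed and the medians were 0.30 and 0.27. Of 6 libraries 5 correlated best with their own number, a hint from the data and not from the design, and ACKR4_KO replicate 2 did not. With 3 libraries in each group no exact permutation p can fall below 0.1, and the depth of 9422462 to 13910358 reads limits the weakest gene, Pfkfb1, most.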
